A study of Mus musculus with 2 samples.

Results

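MHC class II genes encode the proteins with which antigen-presenting cells display peptides from engulfed material to CD4+ T cells. Islet cells were examined for 7 of the 27998 genes counted, namely Cd74, H2-Aa, H2-Ab1, H2-Eb1, H2-DMa, H2-DMb1 and Ciita, which were chosen by name, and all 7 had UMIs in both libraries. A UMI is a molecular tag that counts each captured transcript once. The cells came from islets of C57BL/6N mice at 8 weeks of age, either wild-type (WT) or homozygous for a deletion of the ghrelin gene (GKO). Islets from 4 mice of a genotype were pooled, live single cells were sorted by flow cytometry, and each pool gave 1 library of 3′ transcript ends. The mice of both genotypes were littermates fed ad libitum. With 1 library per genotype no test between genotypes was possible, so every interval below is a 95% interval that covers counting error only. Differences between genotypes and differences between pools or libraries cannot be told apart.

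The WT library held 7792 barcodes with 158067110 UMIs and the GKO library 7289 barcodes with 103511757 UMIs, and 18 barcode sequences occurred in both. After removal of barcodes with under 500 genes or over 10% mitochondrial UMIs, 7100 remained in WT and 6346 in GKO. Ghrl, the deleted gene, had 43634 UMIs in WT and 280 UMIs in GKO, of which 12415 and 276 were in a single barcode.

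Class II molecules are pairs of an α and a β chain that assemble in the endoplasmic reticulum with the invariant chain encoded by Cd74. Peptides are loaded in late endosomes, where the H2-DM heterodimer removes the invariant chain remnant, and the transactivator encoded by Ciita switches the whole gene set on. Expression is constitutive in dendritic cells, B cells and many macrophages, and interferon-γ can induce it in endothelial and stromal cells. Islets contain resident macrophages as their main leukocyte. H2-Aa and H2-Ab1 encode the chains of I-A. H2-Eb1 encodes the β chain of I-E, for which mice of the C57BL/6 background lack a functional α chain gene, so its transcript has no partner chain at the cell surface.

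In the gene annotation of GRCm38, 5 members lie within 197 kb of chromosome 17. These are H2-DMa (chr17:34119541-34139101), H2-DMb1 (chr17:34153072-34160230), H2-Ab1 (chr17:34257689-34269419), H2-Aa (chr17:34282744-34287823, minus strand) and H2-Eb1 (chr17:34305867-34316674). Ciita lies on another chromosome (chr16:10480059-10528418). Class II promoters carry a conserved X box and Y box, which bind the regulatory factor X complex and NF-Y and on which the Ciita protein assembles. The 120 bases before the annotated start of an α chain and of a β chain gene are shown because they carry a Y box with an upstream element, the X box core in H2-Eb1 and a cyclic AMP response element in H2-Aa. The sequences are from RefSeq (GRCm38.p6), at chr17:34287824-34287943 on the minus strand for H2-Aa and at chr17:34305747-34305866 on the plus strand for H2-Eb1. Capitals mark the core of an X box (AACNGATG), a Y box (TGATTGG) or a cyclic AMP response element (TGACGTCA), the form that the X2 box takes.
H2-Aa: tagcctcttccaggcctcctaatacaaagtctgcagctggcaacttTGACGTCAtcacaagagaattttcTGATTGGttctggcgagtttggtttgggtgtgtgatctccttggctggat
H2-Eb1: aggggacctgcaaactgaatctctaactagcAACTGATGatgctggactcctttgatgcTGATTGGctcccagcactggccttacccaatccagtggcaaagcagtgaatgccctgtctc

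RefSeq promoters (300 bases each, from 250 before to 50 after the start) were found for 4 of the 7 members, H2-Aa, H2-Eb1, H2-DMa and H2-DMb1. The motifs were searched on both strands, and they were chosen after the sequences had been seen. The X box core was present in H2-Eb1, 89 bases before the start, and in H2-DMb1, 92 bases before it, and in 2.32% of all 32851 promoters. The Y box lay 61 bases before the start in H2-Eb1, 63 in H2-DMb1 and 50 in H2-Aa, against 7.82% of all promoters with it anywhere. The response element lay 74 bases before the start of H2-Aa and was present in 1.79% of all promoters. An X box core that began within 40 bases before a Y box on the same strand was found in 7 promoters (0.0213%), among them those of H2-DMb1, H2-Eb1 and the related class II genes H2-DMb2 and H2-Eb2. These letters were not found in the windows of H2-DMa.

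Barcodes were placed in a class by the share of their UMIs from defining genes. C1q barcodes had at least 0.3% of UMIs from C1qa, C1qb and C1qc, which macrophages express. Endothelial barcodes had at least 0.3% from Plvap, Kdr, Flt1 and Emcn, and stromal barcodes at least 0.3% from Dcn, Lum and Clec3b. Cd79a barcodes had at least 1 UMI of this B cell receptor gene, and endocrine barcodes had at least 5% of UMIs from a single islet hormone. Barcodes that met more than 1 of these limits (929 in WT, 422 in GKO) were set aside, because a droplet that held several cells would be among them. Barcodes outside all 5 classes with UMIs from at least 2 of 10 dendritic cell genes were described as a further group.

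The classes that remained had very different sizes in the libraries. C1q barcodes numbered 190 (2.68% of kept barcodes) in WT and 444 (6.997%) in GKO, and they also carried Csf1r, the receptor of the macrophage growth factor CSF1, at 565 and 633 CPM, the UMIs of a gene scaled to 1e+06 UMIs of its class. Endothelial barcodes numbered 560 and 432, with the endothelial adhesion gene Pecam1 at 1201 and 1297 CPM. Stromal barcodes numbered 256 and 646, Cd79a barcodes 53 and 66, endocrine barcodes 4698 and 3692, and dendritic barcodes 39 and 68.

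The Cd79a limit by itself did not mark B cells. Of the barcodes with a Cd79a UMI, 824 of 892 (92.4%) in WT and 322 of 399 (80.7%) in GKO were also endocrine. Cd79a UMIs were found in 725 of 2274 barcodes (31.9%, exact Clopper-Pearson interval 30.0 to 33.8) in which insulin was the leading hormone in WT and in 236 of 878 (26.9%) in GKO. In the Cd79a barcodes of no other class, the B cell genes Ms4a1 (486 and 935 CPM) and Cd79b (616 and 798 CPM) were both present, as was the plasma cell gene Jchain (10534 and 16751 CPM).

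The limits left few barcodes near them, counted here with those that met several limits. Between 0.3 and 0.4% C1q UMIs, 5 WT and 15 GKO barcodes had medians of 1121 and 700 class II UMIs. Between 0.2 and 0.3%, 6 and 7 barcodes had medians of 508 and 120. For the endothelial limit, 20 WT and 7 GKO barcodes just inside it had medians of 0 and 1, and 13 and 5 just outside had medians of 0 and 3. Of the stromal barcodes just inside, 15 in WT and 37 in GKO had a median of 0 in both libraries, and just outside, 15 and 19 had medians of 1 and 0.

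Over all barcodes the 7 genes together made up 1413 CPM in WT and 3977 CPM in GKO. C1q barcodes held 63.0% of these UMIs in WT and 70.3% in GKO, and dendritic barcodes 7.25% and 12.6%. The levels of the classes spanned more than 2 orders of magnitude. In WT they ran from C1q (66579 CPM) through dendritic (27185), Cd79a (12451), stromal (967) and endothelial (276) barcodes to endocrine barcodes (83.0 CPM). In GKO the order was the same at the top, with C1q at 66216, dendritic at 54816 and Cd79a at 19069 CPM, but endothelial barcodes (622 CPM) lay above stromal barcodes (409 CPM), and endocrine barcodes were lowest at 149 CPM. The counting intervals of neighbours in these orders did not overlap in either library, but they leave out the spread over barcodes. In WT a single endothelial barcode held 938 of the 1299 class II UMIs of its class. Without it the endothelial level lay below the 83.0 CPM of all endocrine barcodes, so their order in WT rested on that barcode.

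**Figure D1:**
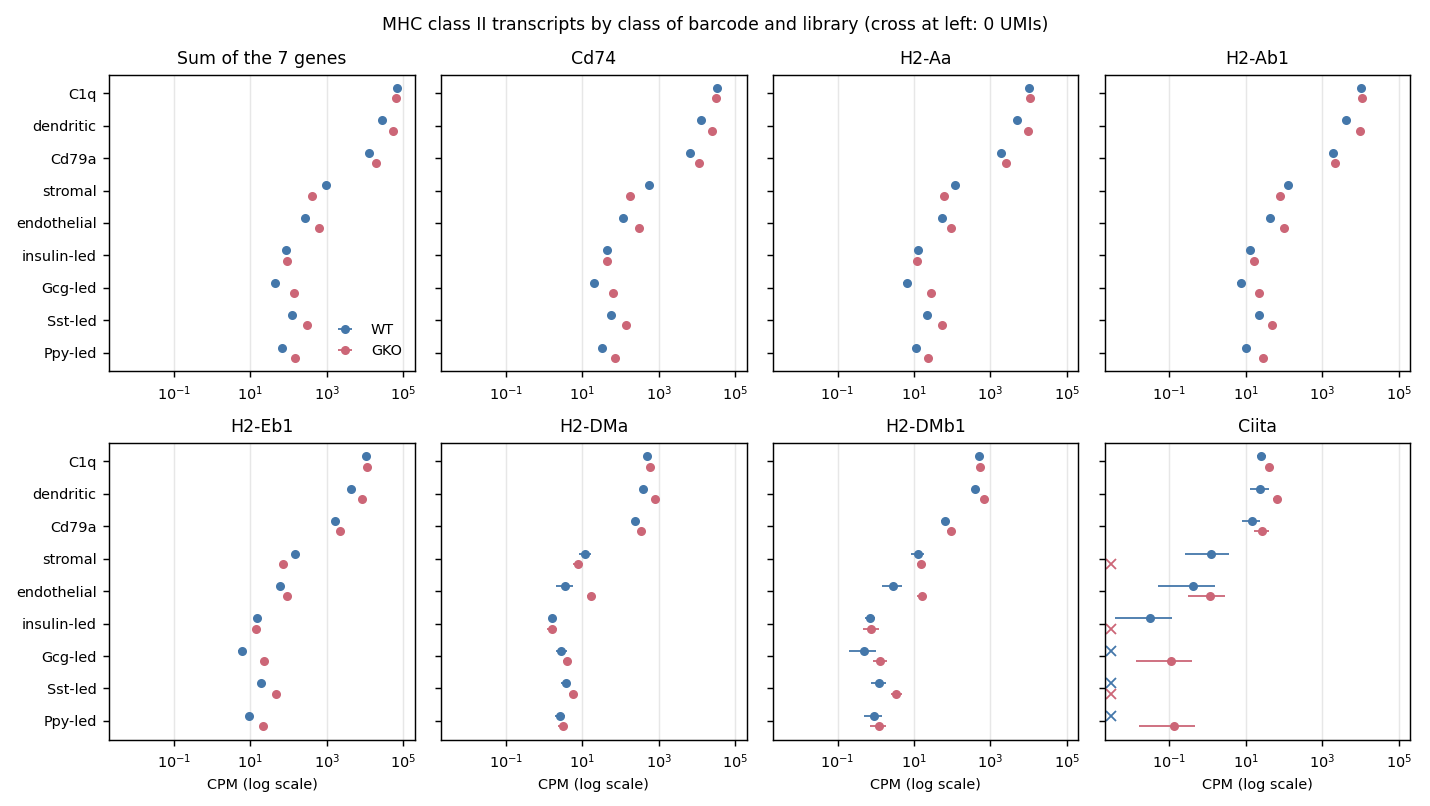
Level of class II transcripts (x axis, CPM, log scale) for the sum and each of the 7 genes in every class of barcodes and in endocrine barcodes split by leading hormone, with WT and GKO as separate points and bars as 95% Poisson intervals. A cross at the left marks 0 UMIs. The C1q points of the libraries lie on each other (66579 and 66216 CPM), the endothelial sum is higher in GKO (276 and 622 CPM), and the stromal sum is higher in WT (967 and 409 CPM).

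Because 3′ counting records each transcript once whatever its length, gene length does not enter a comparison of CPM between genes. Other differences between genes, in capture or in mapping of reads, were not examined. In C1q barcodes of WT, Cd74 stood at 34084 CPM, the 3 chain genes between 10285 and 10683 CPM, H2-DMa and H2-DMb1 at 497 and 494 CPM, and Ciita at 25.5 CPM. By counted UMIs, the invariant chain gene was thus the most abundant member, and the transactivator gene the least, as they were in every class in both libraries. Per 100 Cd74 UMIs in GKO, H2-Eb1 had 34.0 UMIs in C1q barcodes, 33.1 in dendritic barcodes and 18.5 in Cd79a barcodes, so the proportions of the members differed between classes. The reads of H2-DMb1 can be shared with H2-DMb2, a near-identical copy next to it, so its level is uncertain.

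Across the 18 combinations of 9 barcode groups and 2 libraries, the genes whose log level most resembled that of the sum of the members included Cd52 (Pearson's r = 0.983), Sla (0.981), Laptm5 (0.979), Parvg (0.976), Nckap1l (0.976), Arl5c (0.975), Bcl2a1b (0.974), Itgb2 (0.973) and Irf5 (0.973), of 14994 genes compared. These points share libraries, depth and a strong split between leukocytes and other cells, so the values only describe. Among members, r ranged from 0.974 for Ciita to 0.999 for Cd74, each of which is part of the sum.

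In C1q barcodes, class II levels were nearly the same in both libraries. The sum was 66579 CPM (66232 to 66928) in WT and 66216 CPM (65975 to 66458) in GKO, a log2 ratio of GKO to WT of -0.01 (-0.02 to 0.00). Cd74, which guides class II to endosomes, was at 34084 CPM in WT and 32579 CPM in GKO, a log2 ratio of -0.07. The chain genes differed as little, H2-Aa by 0.00 (-0.02 to 0.03), H2-Ab1 by 0.08 and H2-Eb1 by 0.05. Of these, H2-Ab1 changed sign when barcodes were thinned and H2-Eb1 also with TMM scaling. The interval of H2-Aa reached across 0, so changes of its sign were not counted.

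Values for the loading and regulatory genes lay above 0. H2-DMa, the α subunit of the peptide exchange factor, had 497 CPM in WT and 604 CPM in GKO (log2 ratio 0.28, 0.18 to 0.38), and H2-DMb1, its β subunit, 494 and 535 CPM (0.12, 0.01 to 0.22). Ciita had 54 UMIs in WT and 177 in GKO, or 25.5 and 40.5 CPM (0.67, 0.22 to 1.13). Of the 7 members, 0 were past 2-fold in either direction, where 0.925% of 5511 genes with at least 100 UMIs over both libraries were at least 2-fold higher in GKO and 0.762% at least 2-fold lower. The members' median log2 ratio was 0.08, beside 0.10 for those 5511 genes.

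Nearly every C1q barcode carried the transcripts, with at least 1 class II UMI in 189 of 190 barcodes in WT and 443 of 444 in GKO. At least 20 UMIs were found in 181 (95.3%) and 429 (96.6%). The median barcode had 751 class II UMIs in WT, with the 10th and 90th percentiles at 217 and 1269, and 644 in GKO, with these percentiles at 99.3 and 1197. The lower end thus reached further down in GKO, at median depths of 10185 UMIs in WT and 8833 UMIs in GKO.

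Other genes of antigen presentation in C1q barcodes were read as lists. Of 7 accessory class II genes with enough UMIs, 3 were above 0 with a median log2 ratio of -0.09, from H2-Oa, an inhibitor of H2-DM (27.9 and 17.4 CPM, -0.68), to March1, a ligase that removes class II from the surface (0.38). The invariant chain protease Ctss was at 3584 CPM in WT and 3369 CPM in GKO. The 4 costimulatory genes tested had a median of -0.36, with the lowest value at Cd274 (-0.62), which encodes the inhibitory ligand PD-L1. Among 12 interferon-induced genes 8 were above 0, the median was 0.32 beside 0.10 for all genes, and 2 were at least 2-fold higher in GKO. These were Iigp1, an interferon-inducible GTPase (6.62 and 25.9 CPM, 1.97), and the chemokine gene Cxcl9 (99.3 and 221 CPM, 1.16). Ifit1, which type I interferon induces, was lowest (132 and 69.4 CPM, -0.92). Isg15 (635 and 336 CPM, -0.92) and Cxcl10 (1709 and 917 CPM, -0.90) were nearly as low, so the list did not go in a single direction.

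In endothelial barcodes, class II transcripts were higher in the GKO library for 6 members, while Ciita had too few UMIs to compare. The sum was 276 CPM (261 to 291) from 1299 UMIs in WT and 622 CPM (597 to 649) from 2180 UMIs in GKO, a log2 ratio of 1.18 (1.08 to 1.28). Cd74 was at 114 CPM in WT against 305 CPM in GKO (1.42, 1.27 to 1.58). The β chain gene H2-Ab1 was at 43.1 and 103 CPM (1.26, 1.00 to 1.51).

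The remaining chain genes were less far apart, H2-Aa at 52.4 and 92.2 CPM (log2 ratio 0.82) and H2-Eb1 at 59.8 and 88.8 CPM (0.57). In WT, 199 of 247 H2-Aa UMIs and 234 of 282 H2-Eb1 UMIs were in the barcode with the most class II UMIs. Without the top barcode of each library, H2-Aa was at 2.50, H2-Eb1 at 2.18 and H2-Ab1 at 2.07. The order of the chain genes thus rested on these barcodes. H2-DMa had 17 UMIs in WT and 60 in GKO (2.25, 1.45 to 3.12), and H2-DMb1 13 and 55 UMIs (2.51, 1.62 to 3.51). Ciita had 2 UMIs in WT, both in the barcode with the most class II UMIs, and 4 in GKO (1.43, -1.37 to 4.90), so no difference in the transactivator was detectable at this depth. Of the 4 members with at least 100 UMIs, 2 (Cd74 and H2-Ab1) were at least 2-fold higher in GKO, where 0.31% of 7730 genes were, and 0 were at least 2-fold lower, where 0.479% were. Their median was 1.03, beside 0.04 for all genes tested.

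The difference lay in how many endothelial barcodes had several class II UMIs. At least 1 UMI was found in 29.8% of WT barcodes (26.1 to 33.8) and 40.7% of GKO barcodes (36.1 to 45.5). Endocrine barcodes, in which these genes are not normally on, had 39.0% and 47.4% at median depths of 16853 and 13691 UMIs, against 6970 and 7307 UMIs in endothelial barcodes, so a single UMI was read as background. Each barcode was then thinned to 2000 UMIs, which left out 7 barcodes in each library. At least 2 class II UMIs remained in 18 of 553 WT barcodes (3.25%, 1.94 to 5.10) and 49 of 425 GKO barcodes (11.5%, 8.65 to 15.0). Endocrine barcodes had 0.469% and 0.759%. They were deeper, and hormone genes made up 54.1% and 46.7% of their UMIs, so they are not a like background after thinning. The shares were 5.69% and 3.95% in stromal barcodes. In barcodes that met no class limit and had UMIs from fewer than 2 dendritic cell genes they were 10.2% and 4.94%. Unthinned, at least 5 UMIs were found in 17 of 560 (3.04%) in WT and 42 of 432 (9.72%) in GKO, and at least 20 in 1 and 17 barcodes (0.179% and 3.94%).

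A single barcode decided the WT level. It held 938 class II UMIs, 72.2% of those of its class, together with 38 UMIs of 11 leukocyte genes, among them genes for C1q, CD45 and lysozyme. The next WT barcodes held 18, 16 and 13 class II UMIs. In GKO the highest held 762 UMIs with 80 leukocyte UMIs, followed by 159, 151, 119, 75, 73, 72, 66 and 64 UMIs in barcodes with 0 to 13 leukocyte UMIs. Without the highest barcode of each library the levels were 77.2 CPM in WT and 407 CPM in GKO, a log2 ratio of 2.40. Without every barcode that had a leukocyte UMI, 484 WT and 350 GKO barcodes gave 76.2 and 315 CPM (2.05, 1.85 to 2.24), and all 6 members other than Ciita were between 1.81 and 2.30. In those barcodes, at least 20 class II UMIs were found in 0 of 484 in WT and in 10 of 350 in GKO.

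**Figure D2:**
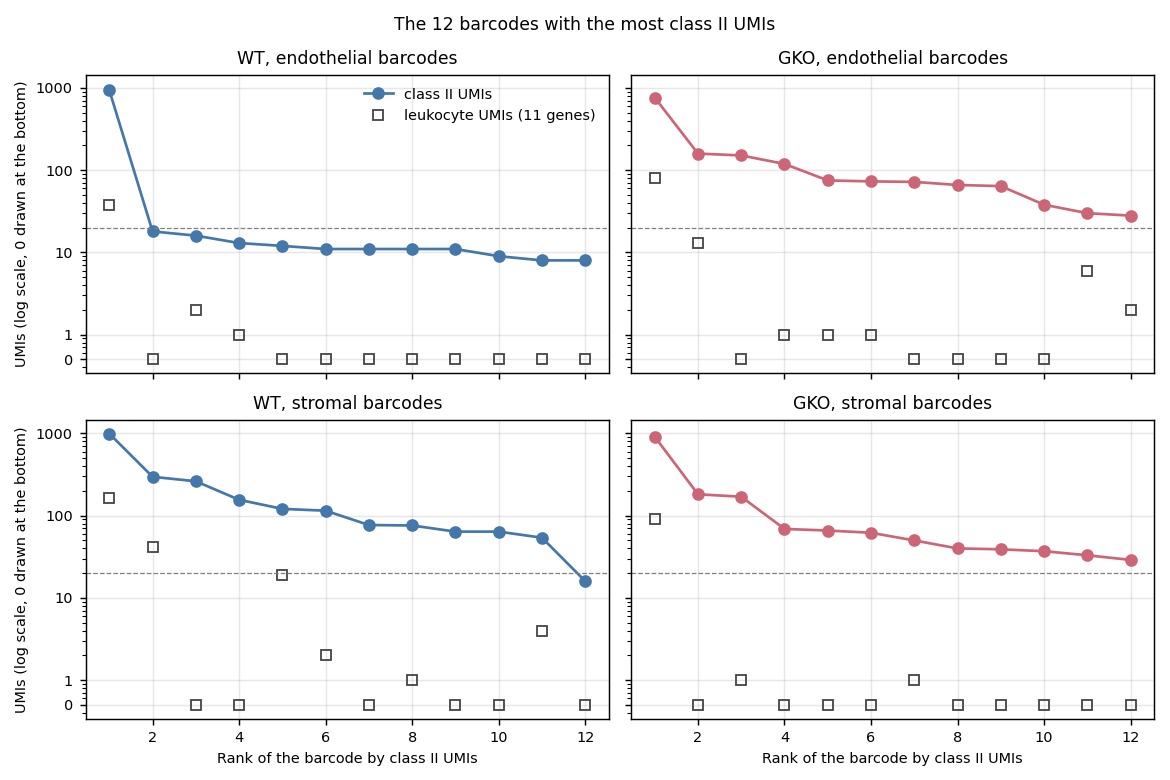
Class II UMIs (y axis, log scale) in the 12 barcodes with the most of them in endothelial and stromal classes of each library, with the UMIs of 11 leukocyte genes in the same barcodes. The dashed line stands at 20 UMIs. Below the top barcode, which has 38 leukocyte UMIs in WT and 80 in GKO, endothelial barcodes of GKO stay above those of WT.

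**Figure D3:**
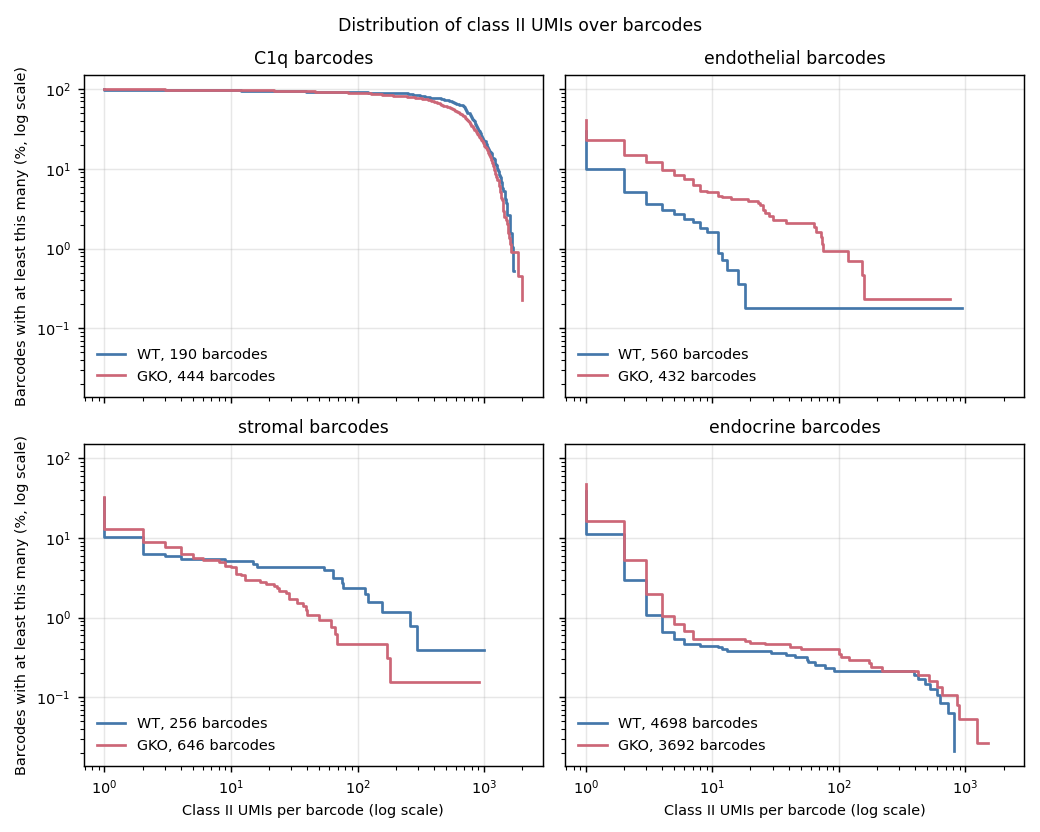
Share of barcodes (y axis, percent) with at least the number of class II UMIs on the x axis (log scale) in C1q, endothelial, stromal and endocrine barcodes of each library. The C1q curves stay high well past 100 UMIs, while 1 of 560 WT and 17 of 432 GKO endothelial barcodes reach 20 UMIs.

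Chain genes were detected more often in endothelial barcodes with a Cd74 UMI than in those without. A chain gene was detected in 34.1% of WT barcodes with a Cd74 UMI and 16.2% of those without, and in 58.9% and 23.7% in GKO. Stromal barcodes had 40.5% and 17.4% in WT and 58.1% and 17.7% in GKO. Endocrine barcodes went the same way, with 29.6% and 22.0% in WT and 35.4% and 28.1% in GKO. These shares were not thinned, so the depth of barcodes enters them. The 17 GKO barcodes with at least 20 class II UMIs had capillary endothelial genes, Fabp4 among them, at a summed 9843 CPM. In GKO endothelial barcodes with 0 class II UMIs this sum was 10426 CPM. Venous genes were at 258 and 139 CPM and arterial genes at 248 and 608 CPM, and the endothelial genes of the class limit made up a median of 1.18% and 1.85% of UMIs. Of the 17 barcodes, 10 had no leukocyte UMI.

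These 10 were compared with the 205 GKO barcodes that had no class II and no leukocyte UMI. Only genes detected in at least 50% of the 10 were ranked as higher in them. Beside the members, the highest were Odc1, Vegfc, Prcp, Iigp1, Igtp, Irgm2, Aqp1, Fbln2, Fabp4 and Aplnr. Larger differences than theirs lay in the other direction, led by Hbb-bs (0 CPM in the 10 and 1184 CPM in the 205). Iigp1, Igtp and Irgm2 encode GTPases of the interferon-inducible family. Iigp1 was at 1207 CPM in the 10 barcodes, in all of which it was detected, and at 220 CPM in the 205. Igtp was at 361 and 67.4 CPM. Fabp4, a fatty acid binding protein of capillary endothelium, was at 6785 and 1495 CPM. It is part of the capillary list summed above, so the similar sums do not mean that each gene of that list was alike. The 10 barcodes were chosen for their class II UMIs, so these values describe them only.

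The listed interferon-induced and class I genes that were tested were higher in GKO across the endothelial class. In stromal and endocrine barcodes the medians of these lists also lay above the median of all genes, as given below. Class I molecules present peptides from the cytosol, and interferon induces many of their genes. All 11 class I genes tested had a log2 ratio above 0, with a median of 0.56 beside 0.04 for all genes, from Tapbp (0.25), a chaperone of peptide loading, to Tap1, a subunit of the peptide transporter (52.4 and 99.7 CPM, 0.93). All 12 interferon-induced genes tested were above 0 with a median of 0.75, from Socs1, a feedback inhibitor (0.26, -0.11 to 0.62), to the GTPase gene Igtp (31.4 and 82.5 CPM, 1.39). At least 2-fold higher were 5 of them, Igtp, Gbp3, Iigp1, Gbp4 and Gbp2.

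These differences were also present in endothelial barcodes with no class II UMI, 393 in WT and 256 in GKO. There the class I median was 0.53 with 11 of 11 above 0, and the interferon-induced median was 0.75 with 12 of 12 above 0 and 4 at least 2-fold higher. The intervals of Irgm1 (-0.02 to 0.75), Stat2 (-0.09 to 0.78) and Socs1 (-0.25 to 0.64) reached across 0 there. In the 340 and 205 barcodes with neither class II nor leukocyte UMIs the medians were 0.49 and 0.72, beside 0.04 for all genes, 2 interferon-induced genes were at least 2-fold higher, and the intervals of Irgm1, Stat2 and Socs1 reached across 0. The regulators of class II and of interferon signalling were closer to 0, with a median of 0.09 over 14 genes and 0 past 2-fold, from Rfxank, a subunit of the X box factor (-0.29), to Ifngr2, a chain of the interferon-γ receptor (0.67). Ifi30 encodes an interferon-γ-inducible lysosomal reductase and was in the accessory list, not the interferon-induced list. It was lower in GKO (33.1 and 15.7 CPM, -1.08, -1.55 to -0.62), the only accessory gene past 2-fold of 3 tested.

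**Figure D4:**
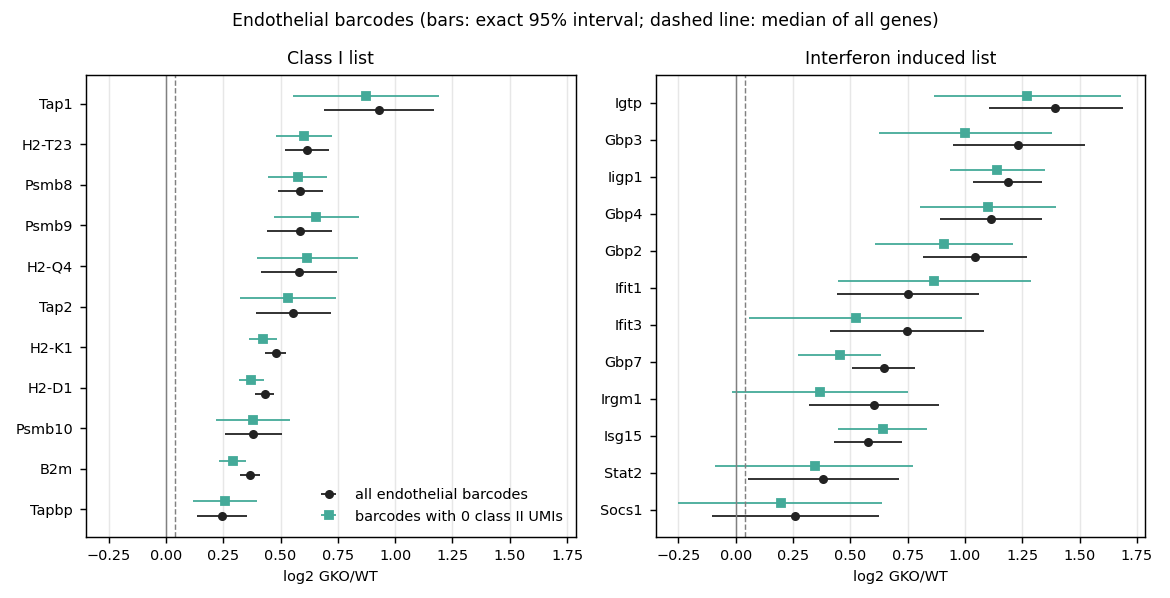
Log2 ratio of GKO to WT (x axis) of each class I and interferon-induced gene in endothelial barcodes, for all barcodes and for the 393 WT and 256 GKO barcodes with 0 class II UMIs, with 95% intervals for counting error. The dashed line marks the median of all genes tested, 0.04. The ratio of every listed gene lies above 0 in both sets, although some intervals reach across 0.

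In stromal barcodes the direction was opposite, with class II higher in WT. The sum was 967 CPM (929 to 1007) from 2402 UMIs in WT and 409 CPM (392 to 426) from 2281 UMIs in GKO, a log2 ratio of -1.24 (-1.33 to -1.16). Cd74 was at 542 CPM in WT and 176 CPM in GKO (-1.62). The chain genes followed in the same direction, H2-Eb1 at 150 and 72.2 CPM (-1.06), H2-Aa at 121 and 60.2 CPM (-1.01) and H2-Ab1 at 128 and 77.4 CPM (-0.73), although H2-Aa (0.35) and H2-Ab1 (0.32) changed sign when barcodes above 2 times the median depth were left out.

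The loading genes were not separated between libraries. H2-DMa had 30 UMIs in WT and 43 in GKO (-0.65, -1.36 to 0.07), and H2-DMb1 31 and 83 UMIs (0.25, -0.36 to 0.90). Ciita had 3 UMIs in WT and 0 in GKO, where 3 UMIs, the number taken as the limit for a count of 0, would be 0.537 CPM, and the exact Poisson interval reaches 0.661 CPM. Of 5 members with enough UMIs, 3 (Cd74, H2-Eb1 and H2-Aa) were at least 2-fold lower in GKO, where 0.903% of 7534 genes were, and 0 were at least 2-fold higher, where 1.61% were. The members' median was -1.01, beside 0.09 for all genes.

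Few stromal barcodes carried the signal in either library. At least 20 UMIs were found in 11 of 256 WT barcodes (4.30%, 2.16 to 7.56) and 17 of 646 GKO barcodes (2.63%, 1.54 to 4.18), whose intervals overlapped, and at least 1 UMI in 31.6% and 32.4%. These 11 and 17 barcodes held 2280 of 2402 and 1814 of 2281 UMIs. The highest barcodes held 994 UMIs in WT, with 166 leukocyte UMIs, and 912 in GKO, with 90 leukocyte UMIs. Without barcodes that had a leukocyte UMI the levels were 402 and 237 CPM, a log2 ratio of -0.76 for the sum and -0.16 (-0.63 to 0.32) for H2-Aa, from 5 of 200 and 14 of 508 barcodes with at least 20 UMIs. With the deep barcodes left out, the ratio of the sum was -0.02, so the difference rested on deep barcodes.

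The stromal barcodes with most class II UMIs also carried mesothelial genes. Genes of the mesothelium, the lining of the peritoneal organs, summed to 548 CPM in WT and 1354 CPM in GKO in barcodes with at least 20 class II UMIs, and to 33.0 and 64.8 CPM in those with 0. In WT, 104 of the 145 mesothelial UMIs were in a single barcode, without which, in a check chosen after the data were seen, the level was 166 CPM. In GKO, without the barcode with the most, it was 1138 CPM. The barcode with the most class II UMIs had 0 mesothelial UMIs in both libraries. At least 1 mesothelial UMI was found in 9 of the 11 WT and 15 of the 17 GKO barcodes. The mesothelial list included Krt19, also a marker of ductal cells, so ductal content was not separated. Krt19 had 75 UMIs in the 14 GKO barcodes with at least 20 class II and no leukocyte UMIs, detected in 10 of them. The 3 stromal genes of the limit made up a median of 0.451% and 0.890% of their UMIs, beside 1.32% and 1.78% in barcodes with 0 class II UMIs. Cxcl13, a chemokine gene that attracts B cells, was at 14017 CPM in WT and 8386 CPM in GKO in the barcodes with at least 20 class II and no leukocyte UMIs, where it was detected in 3 of 5 and 9 of 14 barcodes, and at 10.2 and 33.9 CPM in those with neither. The label stromal thus covered barcodes of mixed marker content where class II was high.

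Most class I and interferon-induced genes tested in stromal barcodes did not share the direction of class II. Of 11 class I genes 10 were above 0 with a median log2 ratio of 0.29, beside 0.09 for all genes. Of 13 interferon-induced genes 9 were above 0 with a median of 0.52, 1 at least 2-fold higher and 2 at least 2-fold lower. Ifit1 was highest (10.1 and 31.9 CPM, 1.66) and Cxcl9 lowest (89.0 and 6.81 CPM, -3.71). The other gene at least 2-fold lower was the chemokine gene Cxcl10 (174 and 79.5 CPM, -1.13), so these chemokine genes shared the direction of class II.

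In Cd79a barcodes the ratio of every member lay above 0, although H2-Ab1 was at -0.0907 without barcodes above 2 times the median depth and H2-DMa at -0.21 when barcodes were thinned. The sum was 12451 CPM (12245 to 12659) in WT and 19069 CPM (18763 to 19379) in GKO, a log2 ratio of 0.62 (0.58 to 0.65), from 53 and 66 barcodes. Cd74 was at 6735 and 11667 CPM (0.79), H2-Aa at 1841 and 2572 CPM (0.48), H2-Eb1 at 1661 and 2157 CPM (0.38), and H2-Ab1 at 1895 and 2208 CPM (0.22). The subunits of the exchange factor were at 0.52 (H2-DMa) and 0.53 (H2-DMb1), and Ciita had 16 and 21 UMIs (0.93, -0.08 to 1.96).

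Of 6 members tested in Cd79a barcodes, 0 were past 2-fold, where 5.29% of 2550 genes were at least 2-fold higher and 6.98% at least 2-fold lower. Their median was 0.50 beside -0.22 for all genes. Per barcode the order was the other way, with medians of 210 class II UMIs in WT and 183 in GKO, at median depths of 15833 and 10735 UMIs. Of 8 accessory genes, 7 were above 0 and 3 at least 2-fold higher, namely H2-Ob, a subunit of the H2-DM inhibitor of B cells (67.8 and 140 CPM, 1.04), Ctss (187 and 410 CPM, 1.13) and March1 (39.2 and 80.1 CPM, 1.03). Mzb1, a gene of antibody-secreting cells, which have little class II, was at 1940 CPM in WT and 1278 CPM in GKO. Jchain, the plasma cell gene named above, was instead higher in GKO, so these markers did not share a direction. The part of such cells in the result was not tested.

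Dendritic barcodes, 39 in WT and 68 in GKO, had 27185 CPM (26768 to 27607) and 54816 CPM (54345 to 55290), a log2 ratio of 1.01 (0.99 to 1.04). Their median was 163 class II UMIs in WT and 753 in GKO, with the 25th percentile at 32.5 and 594. At least 100 were found in 24 (61.5%) and 63 (92.6%) barcodes, so the WT group held many barcodes with little class II. Neither a background of all genes nor alternatives were computed for this group. H2-Ab1 (4280 and 9954 CPM, 1.22) and Cd74 (12884 and 25235 CPM, 0.97) were both higher in GKO. Ciita had 14 and 63 UMIs, or 23.5 and 66.7 CPM (1.505, 0.65 to 2.46). Some marker genes, named after their values were seen, also differed between the libraries in these barcodes. Ccr7 and Fscn1, genes of mature migrating dendritic cells, were at 827 and 908 CPM in WT and 289 and 131 CPM in GKO. Clec9a, of the cross-presenting subset, was at 21.8 and 106 CPM, and Lyz2, a myeloid lysozyme gene, at 384 and 1377 CPM. The part of this make-up in the difference was not tested.

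Endocrine barcodes had the lowest levels, 83.0 CPM (81.3 to 84.7) in WT and 149 CPM (146 to 152) in GKO, a log2 ratio of 0.84 (0.80 to 0.88). Cd74 was at 40.6 and 70.6 CPM, and H2-Ab1 at 13.0 and 25.4 CPM. Of 6 members tested 0 were past 2-fold, where 0.756% of 13093 genes were at least 2-fold higher and 0.611% at least 2-fold lower, and the median was 0.83 beside 0.22 for all genes. All 11 class I genes tested were above 0 with a median of 0.48, also beside 0.22 for all genes. Of 11 interferon-induced genes 9 were above 0 with a median of 0.40, and Cxcl10 was lowest (-0.43), followed by Ifit3 (-0.22). At least 2-fold higher were 2 of them, Iigp1 (1.81) and Gbp2 (1.21). The median of all genes was itself above 0. Tapbp (0.07), H2-K1 (0.16) and Stat2 (0.04) were counted above 0 but lay below that median. Ciita had 2 and 4 UMIs in all endocrine barcodes of WT and GKO.

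Most of these UMIs were in very few endocrine barcodes. The 18 WT and 19 GKO barcodes with at least 20 class II UMIs (0.383% and 0.515%) held 6661 of 9171 and 7822 of 10414 UMIs, and the highest held 811 and 1502. Without barcodes that had a leukocyte UMI the levels were 28.5 and 41.1 CPM, a log2 ratio of 0.53 (0.37 to 0.69). By leading hormone, insulin barcodes had 85.8 and 89.7 CPM (0.06, -0.01 to 0.14), Gcg barcodes 43.4 and 140 CPM (1.69), Sst barcodes 125 and 300.3 CPM (1.26), and Ppy barcodes 65.7 and 147 CPM (1.16). In Ppy barcodes of GKO, a single barcode held 1502 of 2251 UMIs. Among Sst barcodes, 2 in WT and 4 in GKO with at least 20 class II UMIs held 1615 of 2054 and 2897 of 3337 UMIs. Such barcodes numbered 4 and 9 among Gcg barcodes and held 200 of 622 and 1822 of 2561 UMIs. Among insulin barcodes, 9 and 4 held 4092 of 5380 and 1481 of 2265 UMIs. The ratios of all hormone groups thus depended on few barcodes.

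In endocrine barcodes with fewer than 5 class II UMIs, the 4 hormone groups were close to each other, from 19.9 to 28.5 CPM in WT and from 30.0 to 39.8 CPM in GKO. There, C1q UMIs numbered 104 to 403 per 100 class II UMIs, whereas C1q barcodes had 21.6 in WT and 23.4 in GKO. The level in these barcodes was not taken as expression by endocrine cells.

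**Figure D5:**
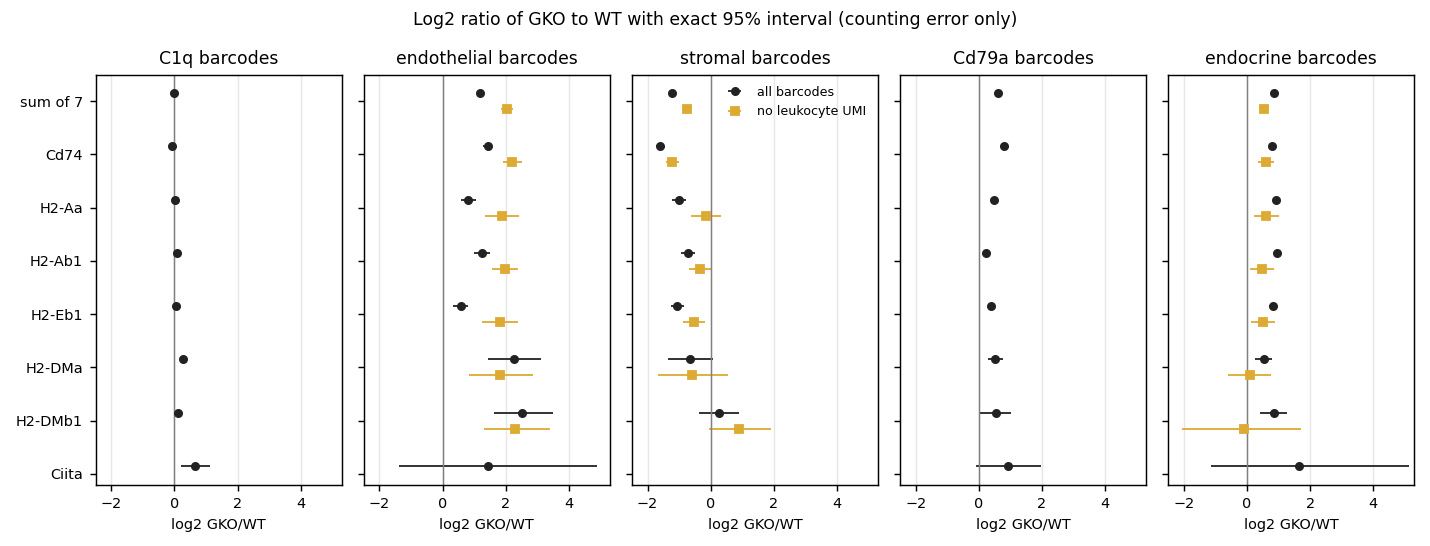
Log2 ratio of GKO to WT (x axis) for each member and for their sum in each class, in all barcodes and in barcodes without a leukocyte UMI, with bars as 95% intervals for counting error. Endothelial values lie to the right of 0 (sum 1.18, and 2.05 without leukocyte UMIs), stromal values of Cd74 and the chain genes to the left (sum -1.24 and -0.76), and C1q values of Cd74 and the chain genes close to 0.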

How the data were processed

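Islets pooled from 4 mice per genotype were dissociated and live cells were sorted and loaded on a droplet system with 3′ chemistry (v3.1). The authors demultiplexed, aligned and counted reads with Cell Ranger 5.0.1 against mm10, per the file headers and the submitters' processing notes. The deposited values are raw UMI counts per gene and barcode, to which no ambient RNA correction had been applied. The annotation release is not given in the sources used here.

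Within each class and library, UMIs were summed and expressed as CPM of the class total. Exact Poisson intervals were used for levels, exact binomial intervals for ratios of sums and Clopper-Pearson intervals for shares. PCR duplicates were collapsed by UMI, and intervals cover counting error only. Lists and backgrounds used genes with at least 100 UMIs over both libraries in that class and a limit of 2-fold, with 0.5 UMIs added to each sum. Barcodes were thinned to 2000 UMIs for shares. No doublet caller was run, and barcodes of more than 1 class were left out. Named list genes are those with the highest and lowest ratio and those past 2-fold where 5 or fewer were. Ctss, Cd79b, Mzb1, Lyz2 and the other marker genes were named after their values were seen. The same holds for Isg15 and Cxcl10 in C1q barcodes. The members and lists were chosen with earlier results of these data known. TMM factors came from edgeR 4.0.16 in R 4.3.3, and all else from scipy 1.17.1, numpy 2.4.6, pandas 2.3.3 and matplotlib 3.10.9 in Python 3.11.15, and scripts were tested on simulated data. Alternatives covered class limits, overlaps, scaling, thinning, depth, leukocyte UMIs and single barcodes. Leaving out a replicate was not possible with 1 library per genotype. Some genes of the marker and likeness lists are not reported here.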

Additional observations from a re-analysis of the deposited data

Results flagged for a closer look

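The libraries differed in opposite directions between classes. The log2 ratio of class II levels of GKO to WT was 1.176 in endothelial, 0.615 in Cd79a and 0.841 in endocrine barcodes, and -1.243 in stromal barcodes. The stromal value was -0.15 with stricter class limits and -0.0153 without barcodes above 2 times the median depth. This difference between classes was not tested, since each genotype had 1 library.

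Barcodes outside the limits on genes and mitochondrial UMIs, 692 in WT and 943 in GKO, entered no comparison and held class II transcripts at 3120 CPM in WT and 2752 CPM in GKO.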

How the results depend on the processing

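No paired analysis was possible because each genotype had 1 library. Of 53 alternatives for the class II sums, 15 stayed within the counting interval of the main value and 38 moved beyond it. None was counted as reversed. For C1q barcodes, 2 alternatives lay above 0, where the main value was -0.01 (-0.02 to 0.00). That interval reached across 0, so these 2 were not counted as reversed. The log2 ratio stayed above 0 in all alternatives for endothelial (0.63 to 3.66), Cd79a (0.38 to 1.48) and endocrine barcodes (0.53 to 1.11), stayed below 0 for stromal barcodes (-1.77 to -0.02), and lay between -0.09 and 0.05 for C1q barcodes. In the order C1q, endothelial, stromal, Cd79a and endocrine, the ratio was 0.0504, 0.63, -0.90, 1.48 and 0.92 with barcodes of several classes kept, and -0.0264, 3.66, -0.15, 0.52 and 0.75 with stricter class limits. It was -0.077, 1.63, -0.82, 0.41 and 0.77 with every barcode weighted equally, and -0.042, 2.21, -0.0153, 0.38 and 1.11 without barcodes above 2 times the median depth. Thinning gave -0.0868, 1.71, -0.88 and 0.38 for the first 4. TMM factors gave -0.0865 for C1q, 0.68 for Cd79a and 0.62 for endocrine barcodes. Without leukocyte UMIs the ratio was 2.05 for endothelial, -0.76 for stromal and 0.53 for endocrine barcodes. With the endocrine level subtracted it was 1.30 for endothelial and -1.77 for stromal barcodes. Without the highest barcode of each library, an alternative chosen after seeing the data, it was 0.0037 for C1q, 2.40 for endothelial, 0.72 for Cd79a and 0.75 for endocrine barcodes. Endocrine barcodes gave 0.63 with hormones left out of the total and, also chosen after seeing the data, 0.71 with the WT mix of hormones. Except where fewer barcodes entered by construction, the cause was not tested.

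With at least 50 UMIs in place of 100, 1.87% of genes in C1q, 0.613% in endothelial and 1.28% in endocrine barcodes were at least 2-fold higher, and 1.40% in stromal barcodes at least 2-fold lower. With at least 500 UMIs, 0.808% in stromal and 0.334% in endocrine barcodes were at least 2-fold higher. Of 300 alternatives for single members, 12 changed sign where the main interval lay on 1 side of 0. Sign changes of members whose main interval reached across 0, such as H2-Aa in C1q barcodes, were not counted. In C1q barcodes these were H2-Ab1 when thinned (-0.0151) and H2-Eb1 with TMM (-0.0277), equal weights (-0.0129) and thinning (-0.0303). In stromal barcodes, H2-Aa was at 0.22 and 0.35 and H2-Ab1 at 0.19 and 0.32 with stricter limits and without deep barcodes. In Cd79a barcodes, H2-Ab1 was at -0.0907 without deep barcodes and H2-DMa at -0.21 when thinned. In endocrine barcodes, H2-DMa was at -0.51 when thinned and H2-DMb1 at -0.0911 without leukocyte UMIs.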

Other observations

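Barcodes that met none of the class limits and had UMIs from fewer than 2 dendritic cell genes, 375 in WT and 576 in GKO, held class II at 984 CPM and 652 CPM. Barcodes that met more than 1 class limit, 929 and 422, held 895 CPM and 2689 CPM, or 11.97% and 6.90% of each library's class II UMIs. The make-up of this group differed between libraries. Barcodes within the Cd79a and endocrine limits, 824 in WT and 322 in GKO, were at 166 and 625 CPM. Those within the C1q and endocrine limits, 23 and 34, held 16008 and 18066 class II UMIs.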
